A study of Arabidopsis thaliana with 18 samples.

Results

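Transcript levels in rosettes of the Arabidopsis thaliana line Col-S were set directly against those of Col-0 after both lines had been exposed to ozone. The comparison used 6 of the 18 libraries of the series, 3 of Col-S ozone and 3 of Col-0 ozone, chosen by their labels alone. Of 32678 genes in the count tables, 20622 passed a filter on low counts and were tested. Plants of both lines were 3 weeks old and had received ozone at 350 nL per litre for 2 h. RNA came from whole rosettes, each library from a pool of 10 to 15 plants, and the 3 replicates of a group were labelled as biological. Col-0 is the ozone-tolerant laboratory accession. Col-S is a near-isogenic line with Col-0 as its background, into which the ozone sensitivity of the accession Cvi-0 was introgressed. It is a single line, so its differences from Col-0 belong to that line. The 12 other libraries were Col-0, Col-S and Cvi-0 controls kept without ozone and Cvi-0 after the same exposure, with 3 replicates each.

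Ozone enters leaves through the stomata and breaks down to reactive oxygen species in the cell wall space. The plant's own NADPH oxidases, calcium influx and MAP kinases carry the signal onwards. Salicylic acid and ethylene are known to promote ozone-induced cell death, jasmonate is known to limit it, and abscisic acid closes the stomata. Sensitive accessions form visible lesions where tolerant ones do not.

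After ozone, Col-S held more transcript than Col-0 for many regulators of stress responses, heat shock proteins and reactive oxygen signalling genes. Genes of calcium, jasmonate and salicylic acid signalling were higher in part, as were some of salicylic acid synthesis. Col-S held less transcript for photosynthesis, the Calvin cycle and glucosinolate synthesis. At an adjusted p under 0.05 (edgeR quasi-likelihood test, Benjamini-Hochberg), 2094 genes were higher in Col-S (10.2% of those tested) and 1184 were lower (5.74%). A difference of at least 2-fold was reached by 1005 of the higher genes (4.87% of those tested) and by 200 of the lower genes (0.97%). The median log2 difference was 0.96 over the higher genes and -0.58 over the lower genes, so most lower genes differed by a smaller step. The fit behind these counts left out replicate number, although same-numbered libraries of both lines deviated together from their group means. With replicate number as a block, 2713 genes were higher and 2163 lower. Members of 34 gene lists were counted against the shares without the block. Where edgeR called 0 members of a list in a direction, at most 3 passed an unadjusted p under 0.05 in that direction and DESeq2 called at most 1. In the control libraries 70 genes were higher in Col-S (0.339%) and 104 were lower (0.504%).

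The 6 ozone libraries held between 15887138 and 25789925 counts, and 3 counts in a library corresponded to between 0.116 and 0.189 CPM, the unit used for levels below: a gene's count scaled by the size of its library, without regard to gene length. The first principal component of these libraries took 61.1% of the variance and placed all Col-0 libraries below 0 and all Col-S libraries above it. Col-S replicate 2, at 11.5, lay nearest to Col-0, while Col-S replicates 1 and 3 stood at 39.2 and 54.8. Col-0 replicate 2 lay farthest from Col-S, at -49.6, against -31.6 and -24.3 for the others. Single libraries moved the counts: without Col-0 replicate 2 there were 1330 higher and 575 lower genes, without Col-S replicate 3 there were 1295 and 538, and without Col-S replicate 1 the lower genes numbered 615. The count of genes at least 2-fold lower was 133 without Col-0 replicate 2 and 364 without Col-S replicate 2. With replicate number as a block, 2163 genes were lower.

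**Figure D1:**
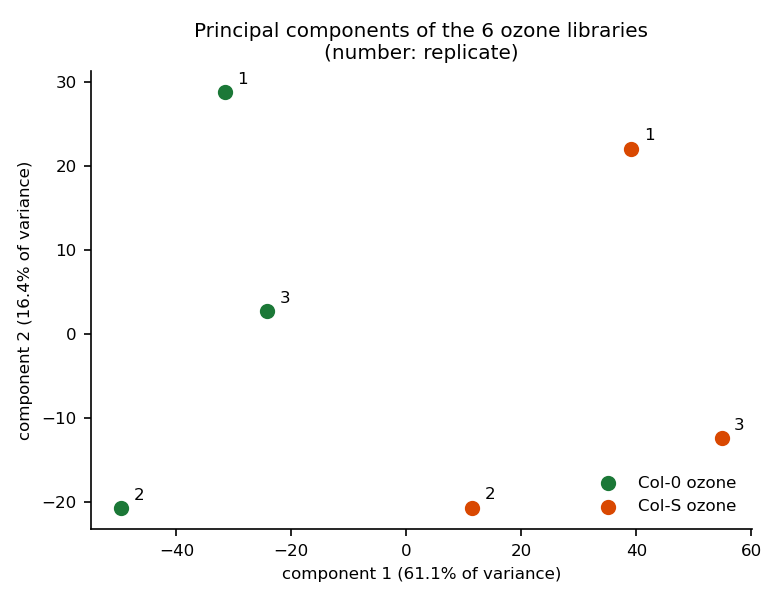
Principal components of log2 CPM in the 6 ozone libraries, with component 1 on the x axis (61.1% of variance) and component 2 on the y axis (16.4%); each point is 1 library and its number is the replicate. Col-0 and Col-S lie on opposite sides of 0 on component 1, and both libraries numbered 2 lie to the left of the others of their group.

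**Figure D2:**
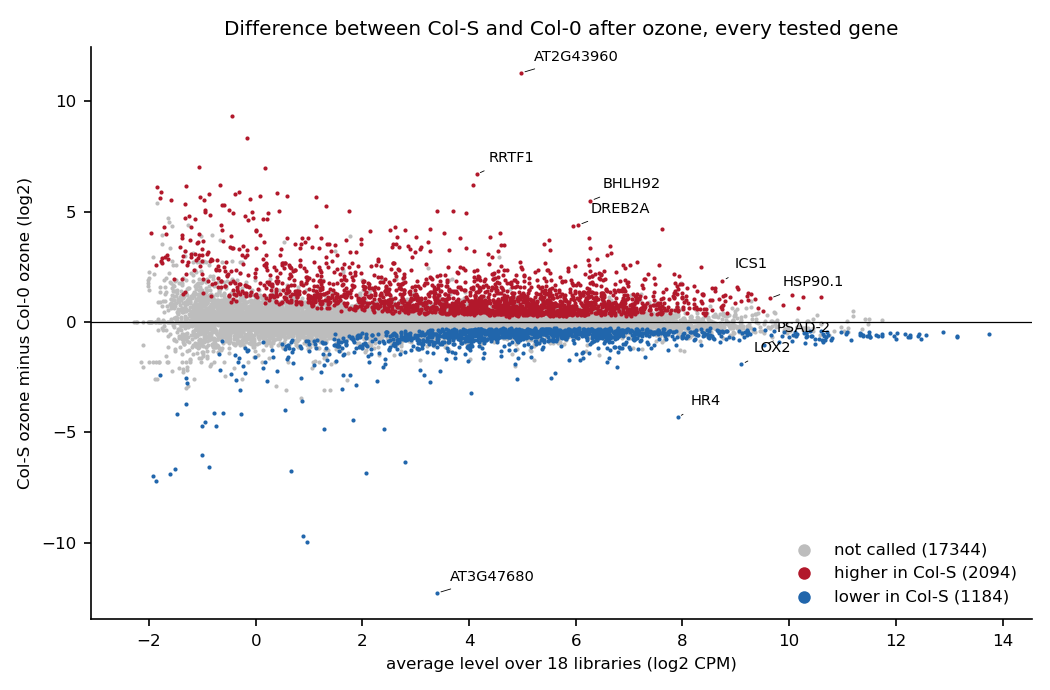
Log2 difference between Col-S and Col-0 after ozone (y axis) against the average level over 18 libraries in log2 CPM (x axis), 1 point per tested gene. Red points are the 2094 genes higher in Col-S, blue points the 1184 lower and grey points the 17344 not called; at the highest levels, on the right, the called genes are mostly blue and lie close to 0.

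Transcription factors and kinases of the stress response were among the largest differences with Col-S higher. Genes named for the largest differences in either direction were taken only from those whose Col-S and Col-0 ozone values did not overlap. Their separation, given below, therefore follows from that choice. Over all tested genes 29% had no overlap, against 93% of those called higher and 89.7% of those called lower. RRTF1, an ethylene response factor family member that responds to the redox state, read 0.294, 0.491 and 0.759 CPM in Col-0 replicates 1 to 3 and 43.7, 15.0 and 102 CPM in Col-S. Every Col-S library was above every Col-0 library (log2 difference 6.70 ± 0.70, SE, adjusted p = 2.37e-05). The gene lies on chromosome 4 (16451876 to 16453260, + strand, TAIR10) and overlaps the annotated gene AT4G34412, so reads of the pair cannot be told apart where strand is not counted. DREB2A, which activates drought and heat genes, read 8.30, 6.88 and 6.67 CPM in Col-0 and 123, 55.0 and 283 CPM in Col-S. The groups lay far apart, with Col-S replicate 2 the lowest and replicate 3 the highest of their group (4.39 ± 0.43, adjusted p = 6.71e-06; chromosome 5, 1602205 to 1603926, + strand). In controls DREB2A stood at 0.769 CPM in Col-0 and 1.01 CPM in Col-S (adjusted p = 1.00).

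The relative DREB2C and the basic helix-loop-helix factor BHLH92 showed the same order of the Col-S libraries. BHLH92 (chromosome 5, 17533193 to 17534796, - strand) read 0.687, 1.19 and 4.83 CPM in Col-0 and 63.3, 46.2 and 184 CPM in Col-S (5.49 ± 0.57, adjusted p = 1.26e-05). DREB2C read 0.884, 0.205 and 0.705 CPM in Col-0 and 10.9, 7.12 and 39.8 CPM in Col-S (5.03 ± 0.65, adjusted p = 6.79e-05). In both genes Col-S replicate 3 was the highest library and replicate 2 the lowest of Col-S, and the groups did not overlap. MAPKKK18, a kinase at the head of an abscisic acid-activated MAP kinase cascade, read 0.393, 0.491 and 0.542 CPM in Col-0 and 15.3, 4.38 and 28.8 CPM in Col-S (5.05 ± 0.55, adjusted p = 1.81e-05). LYK2, a LysM receptor-like kinase whose gene overlaps AT3G01830, read 0.835, 0.573 and 1.41 CPM in Col-0 and 23.5, 11.0 and 50.1 CPM in Col-S (4.93 ± 0.55, adjusted p = 2.14e-05). Again no Col-0 library reached a Col-S library.

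Other genes with differences of this size were low in Col-0. CSLD1, a cellulose synthase-like protein, read 0.245, 0.205 and 0.434 CPM in Col-0 and 15.4, 5.34 and 44.6 CPM in Col-S (6.20 ± 0.83, adjusted p = 0.000103). MAN1, annotated as a glycosyl hydrolase and overlapping AT1G02305, and AT2G17660, annotated as a RIN4 family protein, differed by log2 5.67 ± 0.97 and 5.26 ± 0.58 (adjusted p = 0.00163 and 3.70e-05). AT1G19210, a factor of the AP2/ERF type, differed by 5.05 ± 0.58 (adjusted p = 2.56e-05). AT5G38700, annotated as a cotton fiber protein, differed by 4.35 ± 0.98 (adjusted p = 0.00913), at 3.99 and no longer called without Col-0 replicate 2. In these genes Col-0 stayed under 1 CPM throughout, and every Col-0 library lay below every Col-S library, as the choice of genes required.

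Promoters were read to show what the genes with large differences carry upstream. The 250 bases before the annotated start of 20621 tested genes were searched on both strands for short motifs named for the factors that bind them. The W-box (TTGACC or TTGACT), bound by WRKY factors, was in 37.4% of promoters of genes at least 2-fold higher in Col-S, 31% of those at least 2-fold lower and 29.1% of all tested. The heat shock element GAANNTTC was in 17.1%, 10% and 9.94%, and the G-box CACGTG in 12.2%, 7.5% and 8.80%. The CAMTA box ACGCGT, bound by calmodulin-binding factors, was in 98 of 1005 higher promoters (9.75%), 2 of 200 lower promoters (1%) and 481 of all (2.33%). TGACG was in 26%, 15.5% and 21.8%, GCCGCC in 1.69%, 1.5% and 2.37%, and the evening element AAAATATCT in 3.48%, 4% and 2.33%. Some matches of one motif shared bases with another, 20 of the CAMTA box matches in the higher set among them. A match is a run of letters and shows no binding.

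Between the genes at least 2-fold higher and all tested genes, the W-box share differed most in percentage points. It was in 3 of the 12 genes named for the largest positive differences and in 6 of the 12 named for the largest negative ones. The sequences of 4 of these genes are given from RefSeq (TAIR10.1): the 3 with more than 1 W-box outside any annotated gene and DREB2C, the first by gene ID of 4 that hold 1 there. They run 5′ to 3′ along the gene's strand and are trimmed to the part outside genes, with each W-box on either strand in capitals. They are Col-0 reference sequence, and AT2G39710, AT2G41440 and DREB2C lie on chromosome 2 between 16 and 19 Mb, where earlier results of these data placed Cvi-0 sequence in Col-S.
BHLH92 (higher; chr5:17534797-17535046, - strand): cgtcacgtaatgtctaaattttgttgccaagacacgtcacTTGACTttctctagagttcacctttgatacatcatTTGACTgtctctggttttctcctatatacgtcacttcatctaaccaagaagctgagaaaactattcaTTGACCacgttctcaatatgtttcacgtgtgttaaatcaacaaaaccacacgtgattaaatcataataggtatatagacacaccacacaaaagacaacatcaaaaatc
DREB2C (higher; chr2:16850495-16850737, - strand): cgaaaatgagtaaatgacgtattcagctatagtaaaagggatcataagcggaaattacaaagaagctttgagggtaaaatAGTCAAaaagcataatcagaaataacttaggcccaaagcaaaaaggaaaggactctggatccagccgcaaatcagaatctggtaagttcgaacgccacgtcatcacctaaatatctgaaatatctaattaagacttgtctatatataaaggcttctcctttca
AT2G39710 (lower; chr2:16563442-16563630, - strand): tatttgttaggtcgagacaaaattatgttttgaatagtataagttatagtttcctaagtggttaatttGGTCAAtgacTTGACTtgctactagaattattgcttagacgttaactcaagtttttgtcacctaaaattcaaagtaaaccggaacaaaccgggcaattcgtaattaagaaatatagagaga
AT2G41440 (lower; chr2:17270922-17271142, + strand): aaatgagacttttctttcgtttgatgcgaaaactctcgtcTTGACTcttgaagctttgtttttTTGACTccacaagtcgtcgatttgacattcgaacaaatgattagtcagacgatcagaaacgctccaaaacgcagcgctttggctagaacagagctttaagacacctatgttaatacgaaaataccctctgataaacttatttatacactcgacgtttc
AT2G39710, an aspartyl protease gene, read 22.5, 30.8 and 25.6 CPM in Col-0 and 3.75, 5.15 and 2.79 CPM in Col-S (-2.73 ± 0.21, adjusted p = 6.36e-07). BHLH92 holds 3 W-boxes and is higher, whereas AT2G39710 and AT2G41440 hold 2 each and are lower.

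The CAMTA box was chosen for display after its shares were seen. Of 71 genes named here that were at least 2-fold higher in Col-S, 6 held it. The sequences of a zinc finger factor, a cell death regulator and a danger peptide precursor follow, with the box in capitals.
ZAT7 (chr3:16926884-16927100, - strand): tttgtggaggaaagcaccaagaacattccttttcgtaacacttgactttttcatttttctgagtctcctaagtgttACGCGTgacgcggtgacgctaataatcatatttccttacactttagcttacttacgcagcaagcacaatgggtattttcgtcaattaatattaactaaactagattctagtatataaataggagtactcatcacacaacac
LSD1 (chr4:11004267-11004502, + strand): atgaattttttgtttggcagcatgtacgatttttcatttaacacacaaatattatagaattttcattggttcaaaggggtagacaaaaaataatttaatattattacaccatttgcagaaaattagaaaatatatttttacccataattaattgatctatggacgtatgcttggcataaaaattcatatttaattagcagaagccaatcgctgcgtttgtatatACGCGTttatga
PROPEP1 (chr5:25936920-25937077, + strand): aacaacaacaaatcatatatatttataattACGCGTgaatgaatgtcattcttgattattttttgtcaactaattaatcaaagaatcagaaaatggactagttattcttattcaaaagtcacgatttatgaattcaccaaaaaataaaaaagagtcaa
In ZAT7, LSD1 and PROPEP1 the log2 differences were 3.03, 1.23 and 1.81, and the box lies at different distances from the gene start in each.

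Among abundant transcripts, chaperones and enzymes of stress metabolism led the higher side at differences near 2-fold. Hsp70-2, a cytosolic chaperone, read 1944, 1061 and 1929 CPM in Col-0 and 3942, 3333 and 3728 CPM in Col-S (1.16 ± 0.29, adjusted p = 0.0119). HSP90.1, the heat-inducible HSP90, read 1223, 694 and 1178 CPM in Col-0 and 2321, 2171 and 2023 CPM in Col-S (1.07 ± 0.29, adjusted p = 0.0167). In both, Col-0 replicate 2 was the lowest library; without it the log2 differences were 0.91 and 0.84 and neither gene was called, and HSP90.1 at 1.02 was not called without Col-S replicate 1 either. AT1G22410, a DAHP synthase at the entry of the shikimate pathway, read 883, 669 and 1276 CPM in Col-0 and 2359, 1793 and 2457 CPM in Col-S (1.23 ± 0.22, adjusted p = 0.00109). AIR12, an extracellular cytochrome of the plasma membrane, read 619, 469 and 780.3 CPM in Col-0 and 1539, 1195 and 1538 CPM in Col-S (1.19 ± 0.16, adjusted p = 8.53e-05). Neither pair of groups overlapped.

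TET8, a tetraspanin of plant extracellular vesicles, and AT5G35735, annotated as an auxin-responsive family protein, were higher by log2 1.01 ± 0.21 and 1.14 ± 0.26 (adjusted p = 0.00347 and 0.00648). GAD4, a glutamate decarboxylase that makes GABA, read 642, 415 and 845 CPM in Col-0 and 1504, 707 and 2322 CPM in Col-S (1.25 ± 0.31, adjusted p = 0.0113). Here Col-S replicate 2 fell inside the Col-0 range; the difference was 1.01 without Col-0 replicate 2 and 0.80 without Col-S replicate 3, and was called in neither case.

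Reactive oxygen signalling was higher in Col-S as a list: 10 of its 17 tested members were higher and 0 were lower (median log2 0.63, against -0.01 over all tested genes). ZAT7, a zinc finger factor, read 26.9, 16.5 and 26.6 CPM in Col-0 and 183, 113 and 278 CPM in Col-S (3.03 ± 0.34, adjusted p = 2.14e-05). The NADPH oxidase RBOHF read 22.3, 29.2 and 30.8 CPM in Col-0 and 63.5, 60.4 and 88.5 CPM in Col-S (1.37 ± 0.16, adjusted p = 2.86e-05). Both groups stood apart in both genes. RBOHD, the oxidase behind the rapid oxidative burst, differed less (0.58, adjusted p = 0.00419). AZF2 and ZAT12, further zinc finger factors, were higher by 2.34 and 1.62, SRO5, a relative of the ozone-related protein RCD1, by 3.44 and OXI1, a kinase activated by peroxide, by 1.35. RCD1 itself (0.23, adjusted p = 0.20) and ZAT10 (0.27, adjusted p = 0.63) were not called. This count was 10 without any single ozone library.

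Calcium and MAP kinase genes followed, with 13 of 34 tested members higher and 2 lower (median 0.25). CNGC19, a cyclic nucleotide-gated channel, read 7.71, 12.7 and 9.98 CPM in Col-0 and 47.6, 50.4 and 73.1 CPM in Col-S (2.48 ± 0.32, adjusted p = 7.58e-05). MPK11, MPK3 and MPK6, kinases of immune signalling, were higher by 1.73, 0.66 and 0.36, and the calmodulin-like sensors CML37 and CML38 by 1.76 and 1.13. The 2 lower members were the neighbouring channels CNGC11 and CNGC12, described with the introgressed stretches. Without Col-S replicate 3, 6 members were higher. Of 28 cysteine-rich receptor-like kinases, a family responsive to reactive oxygen, 10 were higher and CRK21 was lower (-0.82). CRK22 read 37.01, 35.5 and 35.6 CPM in Col-0 and 65.2, 59.6 and 58.7 CPM in Col-S, a small difference with little spread (0.76 ± 0.10, adjusted p = 8.69e-05), while CRK37 differed by 2.19. Without Col-S replicate 3, 5 of the family were higher.

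Danger signalling through plant elicitor peptides was higher at the level of both peptide precursors and receptors. PROPEP1 read 1.67, 2.50 and 2.71 CPM in Col-0 and 5.38, 7.50 and 11.4 CPM in Col-S (1.81 ± 0.31, adjusted p = 0.000719), PROPEP2 and PROPEP3 were higher by 1.78 and 1.24, and the receptors PEPR1 and PEPR2 by 1.02 each. LYK5, a chitin receptor, made the sixth of 20 tested members. The flagellin receptor FLS2 (0.15, adjusted p = 0.77) and its co-receptor BAK1 (0.33, adjusted p = 0.051) were not called. PEPR1 groups overlapped through Col-S replicate 2, at 159 CPM against 186 CPM in Col-0 replicate 3; PEPR1 was at 0.91 without Col-0 replicate 2 and 0.64 without Col-S replicate 3 and was called in neither. The list's count was 3 without Col-0 replicate 2 and 2 without Col-S replicate 3.

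WRKY and NAC factors, families that drive defence and senescence transcription, were higher in part. Of 30 WRKY genes 10 were higher and 0 lower (median 0.67). WRKY22 read 10.4, 6.10 and 6.94 CPM in Col-0 and 48.4, 21.4 and 86.2 CPM in Col-S (2.73 ± 0.34, adjusted p = 5.86e-05). WRKY48 read 51.3, 42.8 and 61.0 CPM in Col-0 and 139, 103 and 252 CPM in Col-S (1.67 ± 0.27, adjusted p = 0.000470). Groups were separate in both, with Col-S replicate 2 nearest to Col-0. WRKY46 was higher by 1.55, whereas WRKY33 (0.28, adjusted p = 0.46), WRKY40 (0.27, 0.52) and WRKY53 (-0.02, 0.98) were not called. Without Col-0 replicate 2, and without Col-S replicate 3, 5 WRKY genes were higher. Of 17 stress NAC genes 9 were higher and NAC042 was lower (-1.03, adjusted p = 0.0282), with a median of 0.80. NAC019 read 9.77, 9.29 and 21.9 CPM in Col-0 and 102, 40.5 and 117 CPM in Col-S (2.67 ± 0.38, adjusted p = 0.000152), and its relative NAC072 was higher by 2.11. NAC087 differed by 1.78 ± 0.19 (adjusted p = 1.59e-05).

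**Figure D3:**
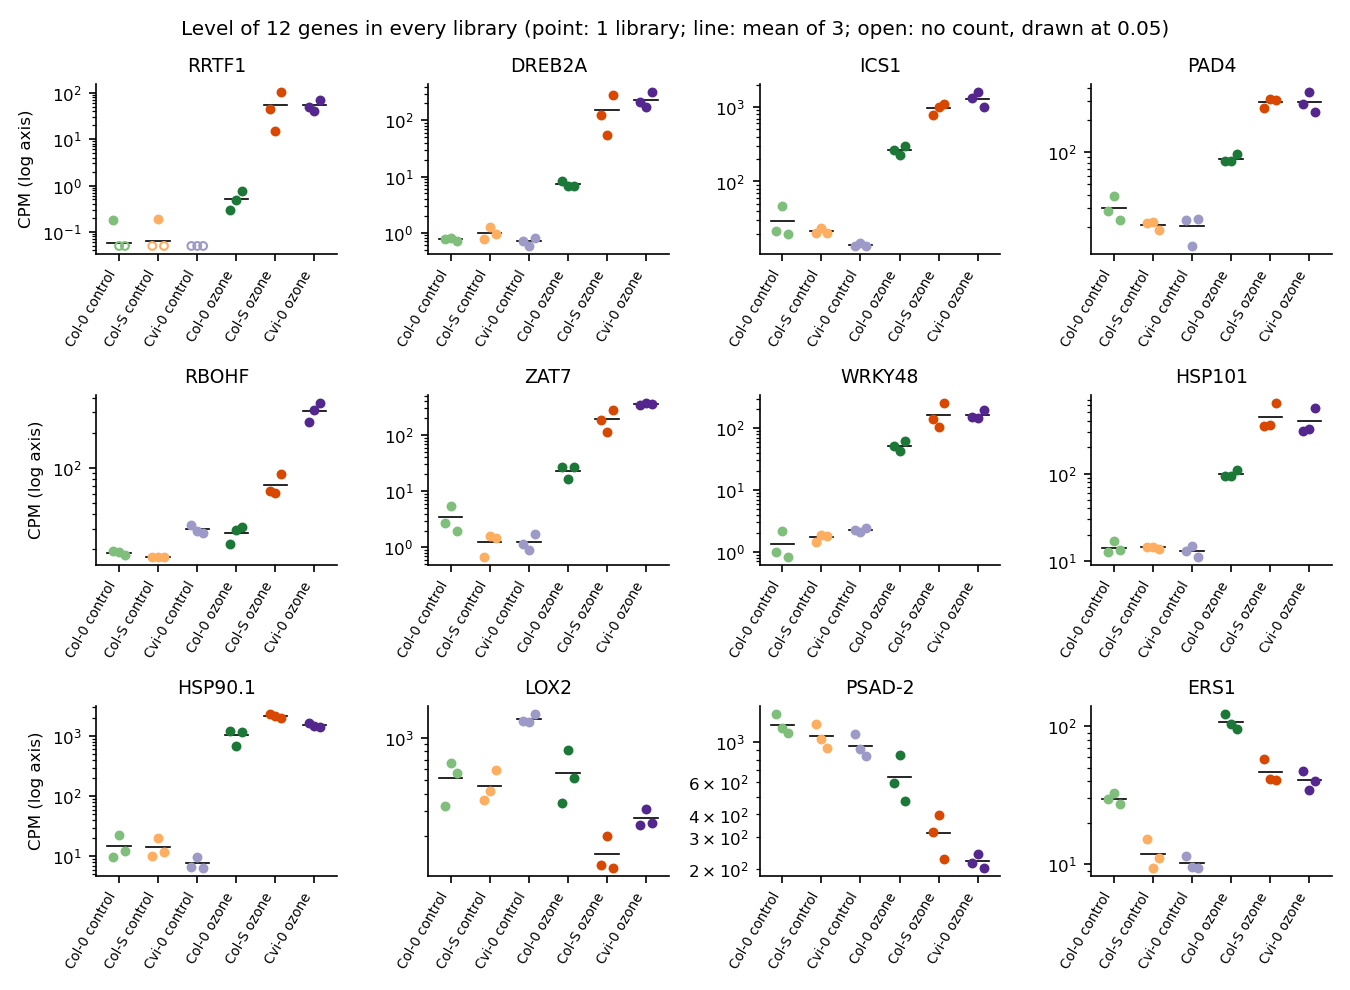
Level of 12 genes in CPM (log y axis) in every library of the 6 groups on the x axis; each point is 1 library, the line is the mean of 3 and open points stand for libraries without a count. RRTF1, DREB2A, ICS1, PAD4, ZAT7, WRKY48 and HSP101 are low in all controls and higher in Col-S ozone than in Col-0 ozone, LOX2 and PSAD-2 are lowest after ozone in Col-S and Cvi-0, and ERS1 is lower in Col-S with and without ozone.

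Several genes of salicylic acid synthesis through isochorismate were higher in Col-S, though not every step. ICS1, isochorismate synthase, read 264, 226 and 298 CPM in Col-0 and 792, 997 and 1095 CPM in Col-S (1.87 ± 0.26, adjusted p = 0.000124). PBS3, which conjugates isochorismate to glutamate, read 172, 165 and 217 CPM in Col-0 and 576, 923 and 860.5 CPM in Col-S (2.09 ± 0.37, adjusted p = 0.00106). No library of one line reached the other line in either gene. EDS5, the transporter of the pathway (its gene overlaps AT4G39040), and SARD1, a factor that activates ICS1, were higher by 1.56 and 1.32. These were 4 of 15 tested members of the synthesis list, with 0 lower, or 2 lower when Col-S replicate 1 was left out. The median of the list was 0.30 after ozone and -0.98 in controls, where 1 member was called lower in Col-S. Not called were ICS2 (0.05, adjusted p = 0.95), EPS1, which releases salicylic acid from the glutamate conjugate (-0.57, adjusted p = 0.16), and the genes of N-hydroxypipecolate synthesis FMO1 (1.49, adjusted p = 0.070), ALD1 (0.09, adjusted p = 0.96) and SARD4 (0.11, adjusted p = 0.87).

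In salicylic acid signalling 8 of 20 members were higher and 0 lower (median 0.52). PAD4, a partner of EDS1 in immunity, read 82.3, 83.3 and 95.5 CPM in Col-0 and 261, 313 and 308 CPM in Col-S (1.76 ± 0.21, adjusted p = 4.56e-05). The PAD4 gene lies within the chromosome 3 stretch of Cvi-0 sequence described below (19431371 to 19434403, + strand). SAG101, the other partner, was higher by 1.62 ± 0.22. EDS1 itself was higher by 0.81, and the salicylic acid receptors NPR3, NPR4 and NPR1 by 0.89, 0.49 and 0.39. GRX480, a glutaredoxin, was higher by 2.18. The pathogenesis-related targets did not pass the test: PR1 stood at -1.74 (adjusted p = 0.37), PR2 at 1.77 (0.14) and PR5 at -0.06 (0.96). Without Col-0 replicate 2, 5 members were higher.

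In ethylene synthesis, 2 genes of its first committed step were higher in Col-S. ACS2, an ACC synthase, read 3.48, 6.71 and 11.0 CPM in Col-0 and 22.9, 25.2 and 53.5 CPM in Col-S (2.26 ± 0.38, adjusted p = 0.000620). ACS7 read 0.638, 1.11 and 0.868 CPM in Col-0 and 3.304, 4.28 and 3.61 CPM in Col-S (2.08 ± 0.32, adjusted p = 0.000358). Both genes were separate between groups, and they were the 2 of 11 tested members that were called. The log2 differences of the list ran from -3.07, not called, to 2.26, with a median of 0.006. ACS6, the isoform stabilised by MPK6, stood at -0.28 (adjusted p = 0.32) and the ACC oxidase ACO4 at -0.30. The receptor ERS1 was the 1 of 13 receptor and signalling genes called, at -1.20 ± 0.17 (adjusted p = 0.000173), and it differed by -1.33 in controls too. Its gene lies within the chromosome 2 stretch of Cvi-0 sequence described below (17084356 to 17087297, - strand). The list of 17 ethylene response factors also holds DREB2A, named above for drought and heat genes, and its relative DREB2B. In this list 5 were higher and 11 were not called. The higher ones were RRTF1, ERF11 (1.66) and RAP2.6 (2.23), beside DREB2A and DREB2B (4.14). ORA59, which joins ethylene and jasmonate signals, was lower (-0.75, adjusted p = 0.0298), but 0 of the list were lower without Col-0 replicate 1, Col-S replicate 1 or Col-S replicate 3, and 2 without Col-0 replicate 2.

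Jasmonate synthesis split between lipoxygenases. LOX3 read 55.0, 71.8 and 95.3 CPM in Col-0 and 262, 154 and 398 CPM in Col-S (1.88 ± 0.27, adjusted p = 0.000170), and LOX4 was higher by 1.31 ± 0.28. LOX2, the abundant chloroplast enzyme, read 343, 814 and 513 CPM in Col-0 and 124, 200.3 and 118 CPM in Col-S (-1.92 ± 0.31, adjusted p = 0.000436). The groups were separate in both directions, and in LOX2 replicate 2 was the highest library of each line. AOC3 and OPR3, later enzymes of the pathway, were higher by 1.40 and 0.97, giving 4 of 14 members higher and 1 lower; 2 were higher without Col-0 replicate 2 or without Col-S replicate 3. AOS stood at -0.27 (adjusted p = 0.39).

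In jasmonate signalling 8 of 22 members were higher and 2 lower (median 0.49). The higher members were the repressors JAZ1 (1.03), JAZ2 (0.68), JAZ5 (1.38), JAZ7 (2.16), JAZ10 (1.60) and JAZ12 (0.48), the factor MYC2 and CYP94C1, which oxidises the hormone. MYC2 read 69.5, 72.8 and 88.6 CPM in Col-0 and 148, 119 and 169 CPM in Col-S, all above Col-0 (0.92 ± 0.13, adjusted p = 0.000174). The storage protein VSP1 (-0.99, adjusted p = 0.0442) and MYC4 (-0.43, adjusted p = 0.0464) were lower. The lower members numbered 1 without Col-0 replicate 3 and 0 without Col-0 replicate 2 or any one Col-S library. The defensin PDF1.2 stood at -1.25 (adjusted p = 0.13). The count of higher members was 5 without Col-0 replicate 2 and 4 without Col-S replicate 3.

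Abscisic acid genes higher in Col-S included NCED3 and NCED9, of the rate-limiting dioxygenases, and 4 phosphatases that restrain the signal. NCED9 had 2 counts over the Col-0 ozone libraries and 3.65, 1.15 and 9.74 CPM in Col-S, a ratio of 137 with a counting interval of 37.4 to 1135. NCED3, the main stress isoform, was higher by 2.04 (adjusted p = 0.00278). HAI1 read 6.68, 7.62 and 13.3 CPM in Col-0 and 63.7, 23.4 and 71.8 CPM in Col-S (2.53 ± 0.41, adjusted p = 0.000507), and HAI2, PP2CA and ABI1 were higher by 3.55, 1.21 and 0.75. With RAB18 and CYP707A3, these were 8 of 27 tested members, with 0 lower and a median of 0.25. The dioxygenase NCED5 (0.03, adjusted p = 0.99), the phosphatases ABI2 (0.46, 0.15) and HAB1 (0.40, 0.29) and RD29A (0.12, 0.69) were not called.

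Stomatal and guard cell genes showed little difference. RBOHF was the 1 of 24 tested members that was called (median -0.16). MPK12, a guard cell MAP kinase that lies within the chromosome 2 stretch (18945981 to 18947823, - strand), read 14.4, 15.5 and 13.7 CPM in Col-0 and 12.7, 13.2 and 12.7 CPM in Col-S. Col-S was lower in every library, but by -0.17 ± 0.12 the difference was not called (adjusted p = 0.368), and a level of transcript does not speak to the protein. The anion channel SLAC1 (-0.17, adjusted p = 0.62) and the kinases OST1 (-0.36, 0.19) and HT1 (0.25, 0.46) were not called either.

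Heat shock factors and chaperones were the list with the highest share of higher members, 17 of 23, with 1 lower and a median of 1.27. HSFA2, which sustains the heat response, read 94.98, 92.5 and 112 CPM in Col-0 and 278, 261 and 342 CPM in Col-S (1.56 ± 0.15, adjusted p = 7.11e-06). HSP101, the disaggregase needed for heat tolerance, read 94.5, 94.0 and 109 CPM in Col-0 and 351, 356 and 638 CPM in Col-S (2.17 ± 0.24, adjusted p = 1.80e-05); its gene overlaps AT1G74300. HSP17.8 read 28.2, 28.0 and 34.4 CPM in Col-0 and 122, 159.9 and 144 CPM in Col-S (2.23 ± 0.25, adjusted p = 2.56e-05). The groups were far apart in all of them, and Col-S replicate 2 was not set back here as it was in RRTF1 or DREB2A. The small heat shock proteins HSP17.6A, HSP17.6II, HSP23.6-MITO and HSP17.4 differed by 3.48, 3.22, 3.39 and 3.85, all from low levels in Col-0. MBF1C, a coactivator of the heat response, was higher by 1.39. The chloroplast disaggregase CLPB3 was lower (-0.55, adjusted p = 0.00845), and HSP18.2 (-0.09, adjusted p = 0.89) was not called.

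Signals of damage in other compartments were mixed. In the endoplasmic reticulum list BZIP28 (0.99) and BZIP60 (0.62) were higher, 2 of 19; BZIP60 was at 0.55 without Col-0 replicate 1, 0.58 without Col-0 replicate 2 and 0.46 without Col-S replicate 3 and was called in none of these. The share of this list called higher was close to the 10.2% over all tested genes. The list count was 1 without Col-0 replicate 2 or Col-S replicate 3. In the same list the chaperone BIP3 stood at 0.33 (adjusted p = 0.80). Of 11 mitochondrial retrograde targets 4 were higher: GSTU25 (2.80), ANAC013 (1.06), UPOX (1.04) and OM66 (0.92), with AOX1A at 0.53 (adjusted p = 0.060); without Col-0 replicate 2, or without Col-S replicate 1, the count was 2, and without Col-S replicate 2 it was 7. Of 27 senescence and cell death genes 6 were higher and 0 lower. These were LSD1, a restraint on spreading cell death, at 1.23 ± 0.16 (31.02, 26.9 and 33.2 CPM in Col-0 against 76.9, 49.5 and 87.8 CPM in Col-S), the death suppressor BI-1 (1.19), BAP2 (1.38), NUDT7 (1.14) and the autophagy genes ATG8H (0.79) and ATG8E (0.68). Of 31 proteasome subunits edgeR called 0, with 1 at an unadjusted p under 0.05, and DESeq2 called 0. Of 16 common reference genes edgeR called 0, with 2 at an unadjusted p under 0.05, and DESeq2 called 0; the smallest adjusted p was that of UBC9, at 0.0918. With replicate number as a block, 2 reference genes were called higher and 2 lower, and 1 was called higher without Col-0 replicate 1 or without Col-S replicate 2.

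Detoxification genes differed within families. Of 32 glutathione transferases 10 were higher and 3 lower: GSTU25, GSTU22 (3.81) and GSTU12 (1.60) led the higher members, and GSTU16 (-0.80), GSTF10 (-0.48) and GSTF9 (-0.37) were lower. Leaving out Col-0 replicate 2 gave 4 higher and 1 lower members, and without Col-S replicate 3 there were 0 lower. Antioxidant enzymes were close to the background, with 3 of 29 higher and 2 lower. CAT2, the leaf peroxisomal catalase, read 599.8, 1320 and 658 CPM in Col-0 and 332, 602 and 388 CPM in Col-S (-0.96 ± 0.27, adjusted p = 0.0213). Its groups overlapped slightly, Col-0 replicate 2 stood far above the others, and at -0.53 without that library, -0.80 without Col-S replicate 1 and -0.88 without Col-S replicate 3 it was not called. DHAR2 (0.55) was likewise not called without Col-0 replicate 2, Col-S replicate 1 or Col-S replicate 3, though it was called without replicate 2 of both lines. Leaving out either Col-0 replicate 2 or Col-S replicate 1, 0 members were called higher and 0 lower.

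Genes of sulfate reduction lower in Col-S were SIR and APR2. SIR, sulfite reductase, read 589, 559 and 551 CPM in Col-0 and 316, 348 and 344 CPM in Col-S (-0.75 ± 0.12, adjusted p = 0.000516). APR2, which reduces activated sulfate and whose gene overlaps AT1G62170, read 211, 284 and 200.2 CPM in Col-0 and 91.7, 122 and 71.4 CPM in Col-S (-1.28 ± 0.24, adjusted p = 0.00166). The groups were separate in both. With VTC4 (-0.58) and GSH1 (-0.27), the first enzyme of glutathione synthesis, 4 of 17 members of the ascorbate, glutathione and sulfate list were lower and 0 higher (median -0.37). The other 13 were not called, among them APR1 (-0.37, adjusted p = 0.28) and APR3 (-0.42, adjusted p = 0.28). The count of lower members was 2 without Col-S replicate 1 and 9 with replicate number as a block.

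Glucosinolates carry much of that sulfur, and 12 of 27 genes of their synthesis and use were lower and 0 higher (median -0.53). MYB28, the activator of aliphatic glucosinolate synthesis, was lower by -0.53, the chain elongation genes MAM3, IPMI1 and IPMI2 by -1.13, -1.15 and -0.77, and the core enzymes CYP79F1, CYP79F2, CYP83A1 and SUR1 by -1.04, -1.18, -0.76 and -0.52. CYP79F1 read 128, 207 and 151 CPM in Col-0 and 51.7, 98.2 and 87.4 CPM in Col-S (SE 0.22, adjusted p = 0.00348). All Col-S libraries were below all Col-0 libraries. Without Col-0 replicate 2, and without Col-S replicate 1, 7 members were lower. Of 17 tryptophan and camalexin genes only PAI1 was called (-0.35, adjusted p = 0.0470); it was not called without any one of 5 of the 6 libraries, and the camalexin enzyme PAD3 stood at -0.24 (adjusted p = 0.78).

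Phenylpropanoid genes were higher at the entry of the pathway, with 5 of 25 members higher and 1 lower although the median of the list was -0.54. PAL4 read 8.35, 7.002 and 8.30 CPM in Col-0 and 23.2, 15.2 and 25.5 CPM in Col-S (1.43 ± 0.17, adjusted p = 4.00e-05), and it was also higher in controls (1.29). PAL2 read 710.3, 501 and 981 CPM in Col-0 and 1824, 876 and 1879 CPM in Col-S (1.06 ± 0.24, adjusted p = 0.00634). Col-S replicate 2 lay inside the Col-0 range in PAL2, and also in C4H (1.23), the next enzyme. PAL2 lies within the chromosome 3 stretch of Cvi-0 sequence described below (19744051 to 19746780, - strand). CCR2 of lignin synthesis and CCOAOMT1 were higher by 1.36 and 0.62, and PAL3 was lower (-0.69). The flavonoid and anthocyanin genes named in it were not called, among them TT4, chalcone synthase, at -0.73 (adjusted p = 0.061) and LDOX at -1.01 (0.15). There were 3 higher members without Col-0 replicate 2. Lower members numbered 10 with replicate number as a block, 5 without Col-0 replicate 1, 3 without Col-S replicate 2, 2 without Col-0 replicate 2 and 0 without Col-0 replicate 3.

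Photosynthesis genes were lower as a block of many small differences. Of 39 nuclear genes of the light reactions 33 were lower, 0 were higher and 0 had a positive log2 difference (median -0.59). PSBY of photosystem II read 779, 1037 and 701 CPM in Col-0 and 441, 508 and 418 CPM in Col-S (-0.88 ± 0.14, adjusted p = 0.000358). PSAD-2 of photosystem I read 596, 852 and 475 CPM in Col-0 and 319.9, 397 and 228 CPM in Col-S (-1.02 ± 0.21, adjusted p = 0.00340). Groups were separate in both, with Col-0 replicate 2 the highest library. FD2, leaf ferredoxin, and ATPC1, a subunit of the chloroplast ATP synthase, were lower by -0.79 and -0.69. The count moved with the libraries used: 19 members were lower without Col-0 replicate 2, 12 without Col-S replicate 3, and 3 when only the 6 ozone libraries were fitted.

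Of 22 Calvin cycle genes 17 were lower and 1, CP12-3, was higher (median -0.55). GAPA-2, glyceraldehyde phosphate dehydrogenase, read 1763, 2527 and 1591 CPM in Col-0 and 1034, 1325 and 1013 CPM in Col-S (-0.80 ± 0.15, adjusted p = 0.00187). RBCS1A, a Rubisco small subunit gene, was lower by -0.53 and Rubisco activase RCA by -0.66. Without Col-0 replicate 2, or without Col-S replicate 3, 10 genes were lower, without Col-S replicate 1 there were 11, and 1 was lower in the fit of the 6 ozone libraries. All 5 markers of mesophyll were lower, but they are no separate observation for the most part. RBCS1A and RCA are also members of the Calvin cycle list and LHCB1.3 of the light reactions list. CA1 (-0.47) and GLO1 (-0.55) are in neither. The summed level of the 5 markers ran from 22230 to 26110 CPM in Col-S and from 30470 to 40490 CPM in Col-0. Since RNA came from whole rosettes, fewer cells of a type and less RNA per cell cannot be told apart.

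Markers of other leaf cell types were also lower in sum, though not in every member. Among phloem markers SWEET11 averaged 106 CPM in Col-0 and 39.4 CPM in Col-S, whereas SUC2, SULTR2;1 and APL were not called. CER1 (0.0009) and GL2 (0.11) of the epidermis list and HT1 (0.25) of the guard cell list were not lower. The 5 phloem markers ran from 356.3 to 398.8 CPM in Col-S and from 462.7 to 521 CPM in Col-0 (2 lower), and the 7 epidermis and trichome markers from 214.5 to 227.4 CPM against 250.4 to 302.4 CPM (2 lower). The 6 guard cell markers ran from 111.9 to 119.6 CPM against 133 to 161 CPM; edgeR called 0 of them, 4 were lower at an unadjusted p under 0.05 and DESeq2 called 1. Flower markers stayed under 2 CPM in sum in both lines and seed markers under 6 CPM, with 2 of each 7 at 0 in all 6 libraries. Root markers, at 278.1 to 408.8 CPM in Col-S and 245.8 to 358.1 CPM in Col-0, rested on RHD2 and PYK10, and IRT1 was at 0 in Col-0. The part of these shifts in the differences above was not tested.

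Chlorophyll genes were lower for the enzymes of the leaf and higher for a stress isoform. Of 24 genes 9 were lower and 1 was higher (median -0.35). CHLH, a subunit of the magnesium chelatase, was lower by -0.69, GUN4, its activator, by -0.90 and CRD1, an enzyme of the chlorophyll ring closure whose gene overlaps AT3G56950, by -0.70. HEMA2, the glutamyl-tRNA reductase used outside photosynthetic supply, read 152, 156 and 227 CPM in Col-0 and 408, 288 and 624 CPM in Col-S, with every library above Col-0 (1.302 ± 0.21, adjusted p = 0.000396). CLH1, a jasmonate-inducible chlorophyllase, was lower and even between libraries, at 167, 189 and 190.0 CPM in Col-0 and 81.3, 83.9 and 82.5 CPM in Col-S (-1.14 ± 0.17, adjusted p = 0.000275). Without Col-0 replicate 2, and without Col-S replicate 1, 5 genes were lower.

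Growth-related lists held few calls beside enzymes that remodel the wall or remove gibberellin. XTH22, a touch-inducible xyloglucan enzyme, read 41.5, 50.8 and 59.9 CPM in Col-0 and 314, 259.9 and 424 CPM in Col-S (2.71 ± 0.26, adjusted p = 6.03e-06), and XTH18 and XTR6 were higher by 2.19 and 1.48. With XTH9 (0.63) these were 4 of 39 auxin and expansion genes higher, a share close to the 10.2% over all tested genes. The auxin carrier PIN3 (-0.74) was lower, beside a list median of -0.34. Lower members numbered 6 with replicate number as a block, 4 without Col-0 replicate 3, 3 without Col-0 replicate 1 or Col-S replicate 2, and 0 without any one of the other libraries. GA2OX2, which inactivates gibberellin, read 12.3, 8.19 and 13.5 CPM in Col-0 and 52.3, 46.9 and 77.3 CPM in Col-S (2.38 ± 0.23, adjusted p = 6.03e-06). Both it and XTH22 were separate between lines. GASA4 (0.41) and GA2OX6 (0.82) were called in the full data but lost the call without any one of 5 of the 6 libraries.

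Of 22 sugar genes 4 were higher and the sucrose exporter SWEET11 was lower (-1.42 ± 0.38, adjusted p = 0.0162; at -1.23 without Col-0 replicate 1 it was not called). SWEET4, a hexose carrier, was higher by 1.35, the amylase BAM1 by 1.04, the hexose importer STP1 by 1.02 and DIN10 by 1.93. There were 2 higher members without Col-0 replicate 2, Col-0 replicate 3 or Col-S replicate 1. Lower members numbered 3 with the block and 2 without Col-S replicate 2. SWEET4 read 1.62, 2.21 and 1.95 CPM in Col-0 and 5.42, 3.27 and 6.20 CPM in Col-S, with no overlap. Of 19 clock genes CDF1 (0.51) and TOC1 (0.61) were higher, a share close to the 10.2% over all tested genes. TOC1 stood at 0.45 without Col-0 replicate 2 and at 0.45 without Col-S replicate 3, not called in either case.

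With replicate number as a block, other counts of members that moved by over 1.5 times did so on few genes. There were 2 higher members among ethylene receptors and signalling, 1 in the sulfate list, and 2 each in the stomatal and chlorophyll lists. Lower members numbered 1 each in the abscisic acid, stomatal, WRKY, gibberellin and clock lists, and 2 each among ethylene response factors, NAC factors, cysteine-rich kinases and tryptophan genes.

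**Figure D4:**
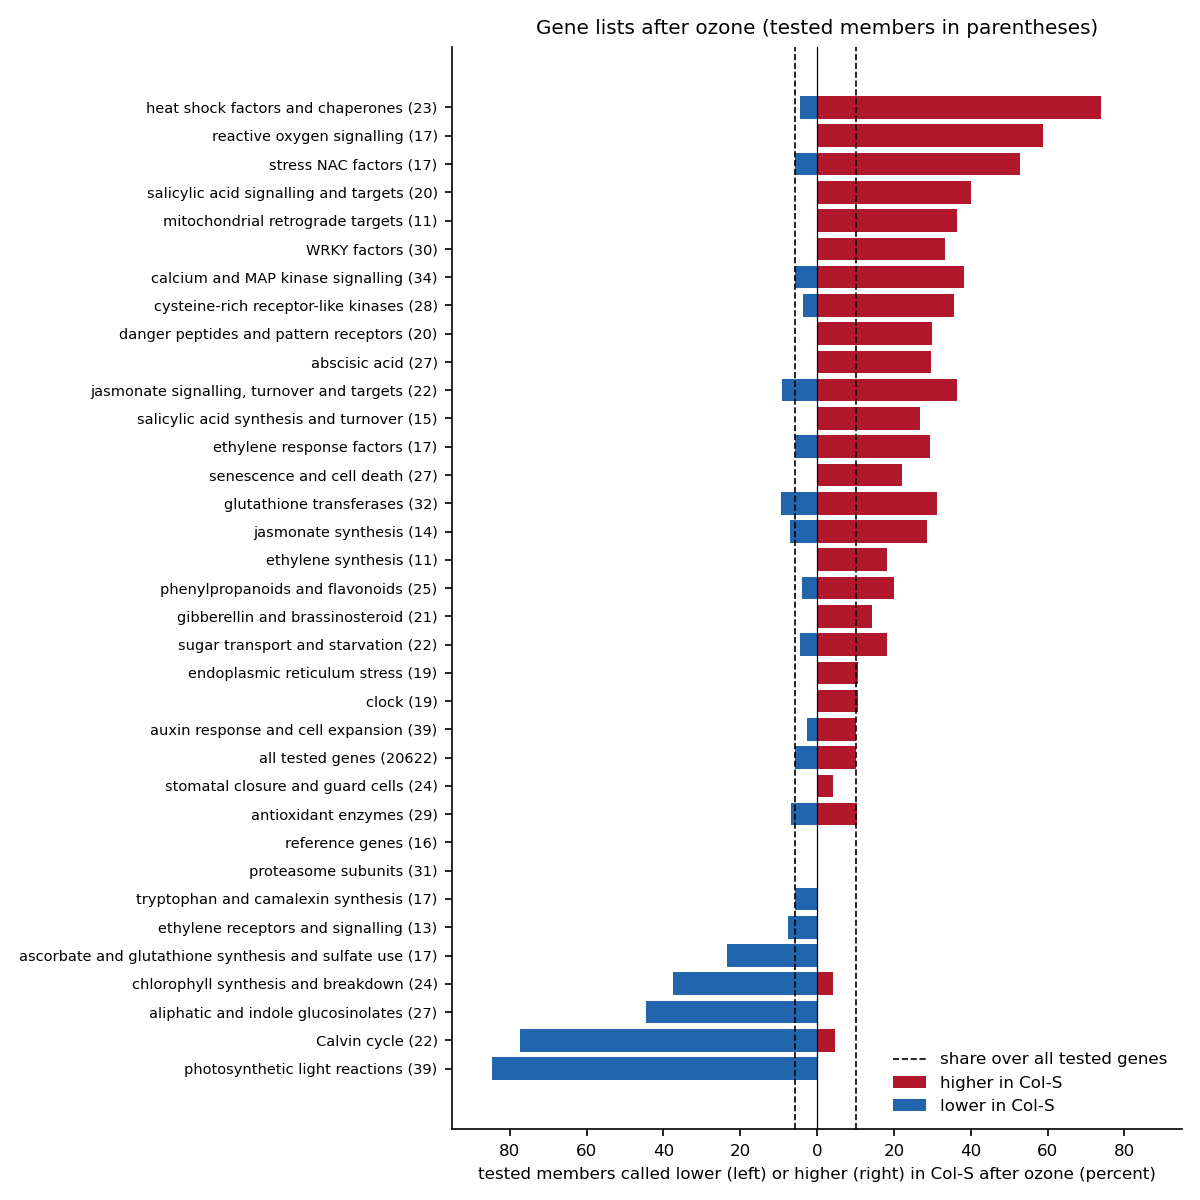
Percent of the tested members of each of 34 gene lists that were lower (bars to the left) or higher (bars to the right) in Col-S after ozone, with the number tested in parentheses; dashed lines mark 5.74% lower and 10.2% higher over all tested genes. Heat shock, reactive oxygen signalling and stress NAC lists reach farthest right, and the light reactions and the Calvin cycle reach farthest left.

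Abundant genes lower in Col-S included defence genes beside photosynthesis. HR4, of the RPW8 family of resistance proteins, read 1419, 872 and 1384 CPM in Col-0 and 59.3, 54.4 and 70.3 CPM in Col-S (-4.32 ± 0.47, adjusted p = 1.75e-05; chromosome 3, 18733068 to 18734388, + strand). AACT1, an acyltransferase that makes coumaroylagmatine, read 447, 319.6 and 276 CPM in Col-0 and 136, 107 and 97.8 CPM in Col-S (-1.61 ± 0.27, adjusted p = 0.000723). DIN11, a dark-inducible dioxygenase, read 325, 242 and 299 CPM in Col-0 and 116, 88.4 and 128 CPM in Col-S (-1.38 ± 0.21, adjusted p = 0.000285). No Col-S library reached Col-0 in any of the 3. HR4 and DIN11 (chromosome 3, 18393747 to 18396816, + strand) lie within the chromosome 3 stretch of Cvi-0 sequence described below. HR4 was lower in Col-S controls too, by -7.27. After ozone HR4 averaged 61.3 CPM in Col-S and 67.0 CPM in Cvi-0, and DIN11 111 and 57.6 CPM. How far mapping of Cvi-0 alleles lowered the Col-S counts of HR4 and DIN11 was not tested. AACT1 and DIN11 averaged under 1 CPM in the controls of both lines. AT3G22060, annotated as receptor kinase-related, and AT4G24350, annotated as a phosphorylase and overlapping AT4G24370, were lower by -1.03 ± 0.15 and -1.13 ± 0.22 (adjusted p = 0.000276 and 0.00209).

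Genes at least 2-fold lower were more frequent in stretches of chromosomes 2 and 3, though most lay elsewhere, as did most higher genes. Earlier results of these data placed Cvi-0 sequence in Col-S on chromosome 2 from 16 to 19 Mb and on chromosome 3 from 17 to 21 Mb. Since the stretches were drawn from the same data, the shares inside them are a description and no independent support for them. In these stretches 33 of 713 and 40 of 871 tested genes were at least 2-fold lower (4.63% and 4.59%), against 127 of 19038 elsewhere (0.667%). At least 2-fold higher were 49 and 58 (6.87% and 6.66%), against 898 elsewhere (4.72%). Reads from Cvi-0 alleles were counted on the Col-0 reference, and how far mapping lowered counts in the stretches was not tested. Positions are given only for some of the genes named above, so other list members may lie in the stretches too.

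The genes with the largest negative differences lay mostly in or near these stretches and were lower in controls as well. AT3G47680, annotated as a DNA binding protein (chromosome 3, 17577398 to 17579577, - strand), read 37.9, 27.4 and 30.1 CPM in Col-0 and had 0 counts in Col-S after ozone, at least 586-fold lower against a floor of 3 counts over the group. Its neighbour AT3G47675 was lower by -4.44 ± 0.35 and CYP71A25, a cytochrome P450, by -4.84 ± 0.58 (adjusted p = 7.56e-07 and 3.74e-05). AT2G41440, annotated as an agamous-like MADS-box protein, read 18.8, 20.02 and 18.3 CPM in Col-0 and 0.197, 0.144 and 0.136 CPM in Col-S (-6.83 ± 0.27, adjusted p = 9.22e-11). On chromosome 2, AT2G39850, a subtilisin-like protease, and HOL2, a methyltransferase, were lower by -2.60 and -2.68. Just past the edge of the chromosome 2 stretch, CNGC11 read 143, 171 and 118 CPM in Col-0 and 22.2, 28.8 and 23.1 CPM in Col-S, with -2.54 after ozone and -2.52 in controls, and CNGC12 beside it stood at -1.73 and -1.79.

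Other genes were the reverse or were nearly silent in one line. AT2G43960, annotated as a SWAP domain protein (chromosome 2, 18203312 to 18204912, - strand), had 1 count in Col-0 after ozone and 59.96, 56.7 and 49.6 CPM in Col-S, a ratio of 3541 with a counting interval of 635 to 139900, and 0 counts against 35.6 CPM in controls. AT3G48346 had 0 counts in Col-0 and was at least 43.5-fold higher in Col-S, while AT3G52535 and AT1G42580 had 0 counts in Col-S after ozone and were at least 95.8-fold and 13.5-fold lower. After ozone Cvi-0 averaged 62.5 CPM for AT2G43960 and 0 for AT3G52535, near the Col-S levels, and 6.43 CPM for AT3G47680, where Col-S had none. Outside the stretches, QQS, an orphan gene that affects starch, read 6.53, 6.80 and 10.2 CPM in Col-0 and 0.838, 0.818 and 0.885 CPM in Col-S (-3.20 ± 0.25, adjusted p = 8.61e-07) and was lower in controls by -2.48. SADHU3-2, annotated as an uncharacterized protein, had 1 count in Col-S and most of its Col-0 reads in replicate 3, at 5.64 CPM against 0.147 and 0.450 (ratio 104 lower, interval 18.3 to 4144). DESeq2 gave no adjusted p for SADHU3-2. CSLA01, a cellulose synthase-like gene, read 0.835, 10.8 and 0.759 CPM in Col-0 and 0.385 CPM or less in Col-S; it was not called at -2.45 without Col-0 replicate 2, at -4.23 without Col-S replicate 1, at -4.42 without Col-S replicate 3 or at -6.99 without replicate 2 of both lines.

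Few of the differences called after ozone were also called in controls. Of the 2094 higher genes 45 were higher in controls, which is 64.3% of the 70 control genes, and of the 1184 lower genes 69 were lower in controls, 66.3% of 104. Among genes at least 2-fold lower the part was larger, 50 of 200 (25%), and the median control difference of these 200 genes was -0.41, against -0.04 for the 1005 genes at least 2-fold higher. In all, 114 genes were called the same way with and without ozone, 35 in the chromosome 2 stretch, 50 in the chromosome 3 stretch and 29 elsewhere. A further 6 were called in opposite ways. ACA13, a calcium pump, had a mean of 10.9 CPM in Col-0 controls and 2.04 in Col-S controls but 16.5 and 49.0 after ozone, log2 -2.44 and 1.57. The glutamate receptor gene ATGLR1.2 went from -4.23 to 1.58 on 4 counts in Col-S controls, and AT2G27660 from -2.01 to 1.44. AGP16 and AT3G52500 were likewise lower in controls and higher after ozone, and AT3G48380 the other way, from 0.63 to -0.62. By the interaction test, which uses the same ozone libraries, the difference between lines rose with ozone in 606 genes (2.94% of those tested) and fell in 67 (0.325%), or 1058 and 424 with replicate number as a block.

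Genes higher in Col-S after ozone were for the most part genes that ozone raised in Cvi-0, a comparison that shares no library with this one. The ozone response of Col-0 was not set beside it, so whether these genes rise in every line was not tested. Many of the higher genes named here also averaged more after ozone than in controls in Col-0. There ICS1 averaged 29.3 CPM in controls and 263 CPM after ozone, Hsp70-2 33.6 and 1644 CPM, HSP101 14.2 and 99.2 CPM and DREB2A 0.769 and 7.28 CPM. Others hardly differed, such as MAPKKK18, at 0.519 and 0.476 CPM, and UPOX, at 2.79 and 2.94 CPM. In Cvi-0, 7112 genes rose with ozone (34.5% of those tested) and 7438 fell (36.1%). Of the 2094 higher genes 1862 rose in Cvi-0 (88.9%), which is 26.2% of the genes that rose there, and 39 fell. Of the 1184 lower genes 937 fell in Cvi-0 (79.1%), which is 12.6% of those that fell, and 101 rose. The median Cvi-0 response was 4.22 on the log2 scale for genes at least 2-fold higher in Col-S, -0.999 for those at least 2-fold lower and -0.05 over all tested genes. Of the 200 genes at least 2-fold lower, 108 fell (54%) and 29 rose in Cvi-0. HR4 was among those that rose there (8.19), and so were DIN11 (9.15) and AACT1 (7.91). All 39 light reaction genes fell with ozone in Cvi-0.

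The level reached in Col-S after ozone was close to that of Cvi-0 for some named genes, and below or above it for others. RRTF1 averaged 53.5 CPM in Col-S and 53.1 CPM in Cvi-0 after ozone, and PAD4 294 and 296 CPM. DREB2A stood lower, at 154 CPM in Col-S and 233 CPM in Cvi-0, as did RBOHF, at 70.8 and 307 CPM, and CRK13, at 434 and 1238 CPM. PBS3 stood higher, at 786.5 CPM in Col-S and 459.5 CPM in Cvi-0, as did LSD1, at 71.4 and 48.9 CPM, and XTR6, at 154.9 and 41.05 CPM. These pairs are values set side by side, without a test, and PAD4 lies within the chromosome 3 stretch.

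**Figure D5:**
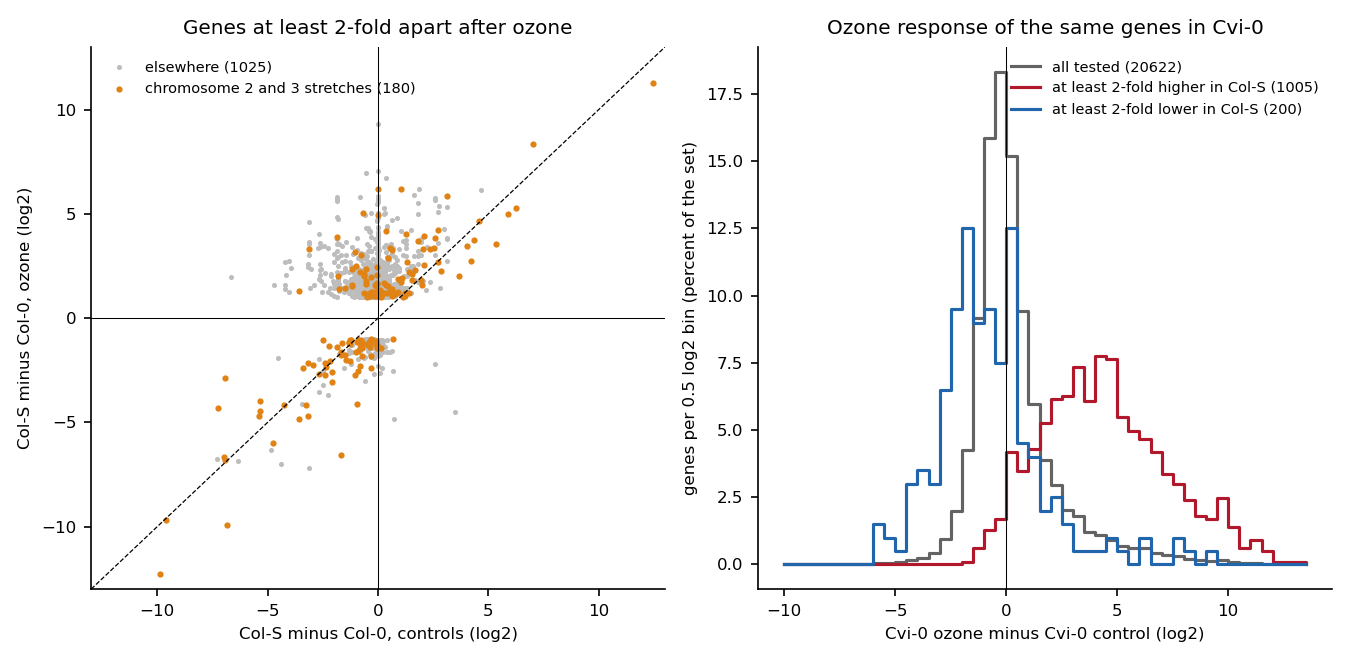
Left, log2 difference between Col-S and Col-0 after ozone (y axis) against the same difference in controls (x axis) for genes at least 2-fold apart after ozone, with genes of the chromosome 2 and 3 stretches in orange and the others in grey; the dashed line marks equal differences. Right, log2 ozone response in Cvi-0 (x axis) as percent of each set per bin of 0.5 (y axis): the 1005 genes higher in Col-S lie mostly to the right of 0, with a median of 4.22, and the 200 lower genes around a median of -0.999.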

How the data were processed

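RNA sequencing of whole rosettes gave 18 libraries, of which 6 entered the comparison. The deposited files hold raw counts of reads per gene, which the authors made with TopHat2, SAMtools and HTSeq on TAIR10 after FastQC, per the submitters' processing notes; their versions, the strand setting and the treatment of multiply mapping reads: not given in the sources used here. Libraries came from the TruSeq RNA kit v2, per the labels' protocols, which does not mark strand, so overlapping genes are uncertain. p-values measure the spread between the labelled biological replicates, estimated for each gene over all 18 libraries, controls and Cvi-0 included. They are not the spread of the 6 compared libraries alone. With only those 6 fitted, 933 genes were higher and 258 lower.

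From the counts, edgeR 4.0.16 in R 4.3.3 fitted all 18 libraries in 6 groups (quasi-likelihood, TMM factors, filterByExpr, 12 residual degrees of freedom), and genes with a Benjamini-Hochberg adjusted p under 0.05 were called. The SE is the log2 difference over the root of F, CPM use TMM-scaled library sizes, and the interaction is the ozone difference minus the control difference. Fitted differences of genes with 0 to 3 counts in a group are replaced by a bound against 3 counts over the group, or by a count ratio with an exact 95% interval, which covers counting error only. DESeq2 1.42.0 was an alternative, and the fit was tested on simulated data.

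Named genes were the 12 highest and 12 lowest log2 differences among called genes at least 2-fold apart whose groups did not overlap and whose mean log2 CPM was not below 1, the 8 most abundant called genes at least 2-fold apart each way (overlap allowed), up to 3 called members per list with the smallest p, MPK12, and the 5 largest differences shared with the controls. Other genes named are members of the lists. ACA13 and the 5 genes beside it were named because they are all the genes called in opposite ways. The members and lists were chosen with earlier results of these data known. Of 805 list entries 747 matched by symbol or synonym, 53 by hand and 5 did not match. Promoters were read from the RefSeq genome (TAIR10.1) on the gene coordinates of the files.

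Same-numbered libraries of the 2 lines deviated together from their group means (correlations 0.527, 0.408 and 0.357, against -0.156 to -0.313 for other pairs). The label numbers were therefore taken to pair the samples. The main fit did not use this pairing, so the SE and adjusted p of single genes leave it out. Blocked counts stand where they differ by over 1.5 times. Replicates of a line differed beyond sampling noise.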

Additional observations from a re-analysis of the deposited data

Results flagged for a closer look

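The difference between Col-S and Col-0 itself changed with ozone for 673 genes by the interaction test of edgeR, which shares its ozone libraries with the comparison above. It rose for 606 genes (2.94% of those tested) and fell for 67 (0.325%). With replicate number as a block these counts were 1058 and 424.

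Among the genes named for size or abundance, 12 had an interaction past the threshold. The log2 interaction was 4.76 for MAPKKK18, 5.36 for AT1G19210, 5.53 for LYK2 and 4.01 for DREB2A, all low and close between lines in controls. It was 1.81 for AT5G35735, 1.19 for AT1G22410, 1.43 for TET8 and 1.23 for AIR12. It was negative for LOX2 (-1.74) and AT2G39710 (-1.71). For HR4 (2.95) and AT3G47580 (4.06) the value is positive because the line difference, lower in Col-S in both states, was larger in controls: HR4 stood at -7.27 there against -4.32 after ozone, and AT3G47580, whose gene overlaps AT3G47590, at -6.93 against -2.87.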

How the results depend on the processing

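With only the 6 ozone libraries fitted, 933 genes were higher and 258 lower (656 and 115 at least 2-fold). Against a difference of 1.5-fold, 625 were higher and 99 lower (607 and 97 at least 2-fold). The replicate block gave 2163 lower genes, and 1058 interaction genes that rose and 424 that fell. Without the chromosome 2 and 3 stretches 128 genes were at least 2-fold lower. The DESeq2 Wald test gave 189 genes lower in controls and 1128 and 158 in the interaction. Leaving out each library in turn gave 1295 to 2462 higher and 538 to 1534 lower genes, 673 to 1276 at least 2-fold higher and 133 to 364 at least 2-fold lower. The causes were not tested beyond the fewer samples or genes that a setting leaves. Upper-quartile factors gave 1937 higher and 1576 lower genes and DESeq2 size factors 2211 and 1035. The medians of ethylene synthesis, proteasome, gibberellin and brassinosteroid and reference gene lists, all near 0, changed sign between scalings, and no scaling moved the median of all genes by over 0.1. Of 125 named genes 0 changed direction, 28 lost their call with the 6 libraries, 42 against 1.5-fold and 16 without Col-0 replicate 2; the block changed 1 call, that of UBC9 (edgeR adjusted p = 0.0443, with 0.0443 to 1 over all settings), and no other named gene's call.

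Depth limited genes near 0.189 CPM, the value of 3 counts in the shallowest of the 6 ozone libraries.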
